A study of Mus musculus with 11 samples.

Results

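From the genes that differed most between hepatocytes with and without *Xbp1*, 8 were picked. Each of them differed on chow by 12.9-fold or more. *Vmn2r3*, *Rap1gap2* and *Rnase2a* were close to silent in chow-fed *Xbp1* fl/fl hepatocytes and were counted in *Xbp1* LKO hepatocytes, while *Grm8*, *Nucb2*, *Acpp*, *Gm4956* and *Gm15998* were lower in *Xbp1* LKO hepatocytes. These 8 of 54232 genes were picked for the largest genotype differences, so the genotype differences given here describe the choice and carry no test. Neighbouring genes were set by position and are tested. Gene families and pathways were listed by function, with earlier results of these data known, and are tested as well. The diet comparisons of the 8 genes are tested too, but they use the same libraries as the choice. Their p-values are therefore not independent of it and can be too small. All 8 genes were among the 13303 that passed the filter on low counts, which removed genes with too few reads in too many libraries to be tested.

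The hepatocytes came from adult male C57BL/6 mice. In *Xbp1* LKO mice the floxed gene is deleted by Cre under the albumin promoter, which is active in hepatocytes, and the *Xbp1* fl/fl controls carry the floxed alleles alone. Each genotype ate chow, or a diet rich in fat with sugar in the water (HFS), for at most 6 weeks. RNA was analysed from 3 chow-fed *Xbp1* fl/fl, 2 chow-fed *Xbp1* LKO, 3 HFS-fed *Xbp1* fl/fl and 3 HFS-fed *Xbp1* LKO libraries, and a further chow-fed *Xbp1* LKO library that the study describes was not analysed here. Each HFS-fed group pooled 6 mice into its 3 libraries, so those libraries average over animals. Totals ran from 19191032 to 23888401 counts per library, and levels are given as counts or as CPM, which divides each count by the size of its library. Library sizes were adjusted by TMM normalization, which sets the typical gene equal between libraries.

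XBP1 is a transcription factor of the unfolded protein response, the programme that enlarges the secretory machinery when unfolded protein builds up in the endoplasmic reticulum. The sensor IRE1 splices *Xbp1* mRNA, and the protein made from the spliced form turns on genes for chaperones, translocation and export. Hepatocytes secrete most plasma proteins and rely on this pathway.

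The targeted gene was lower in *Xbp1* LKO hepatocytes on both diets. *Xbp1* stood at 194, 200.3 and 221 CPM in chow-fed *Xbp1* fl/fl and at 95.7 and 128 CPM in the 2 *Xbp1* LKO libraries on that diet, a log2 fold change of -0.87 (SE 0.18, adjusted p = 0.018, quasi-likelihood test of edgeR, Benjamini-Hochberg adjustment over all 13303 genes, threshold 0.05). On the HFS diet it stood at 301, 295 and 242 CPM against 117, 97.3 and 135 CPM, a log2 fold change of -1.26 (SE 0.16, adjusted p = 0.0025, edgeR). Reads were counted over the whole gene, so what is left of the transcript outside the deletion is included. On chow the call was lost with either *Xbp1* LKO library left out (log2 fold change -0.68 without library 1 and -1.10 without library 2) and with scaling by library totals (-0.54).

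Summed levels of cell type markers were compared beside the 8 genes, without a test. Hepatocyte markers stood at 164573 to 197988 CPM in chow-fed *Xbp1* fl/fl and 63516 to 101510 CPM in chow-fed *Xbp1* LKO ones, and at 143568 to 161977 against 81377 to 114223 CPM on the HFS diet, and none of the 17 was at 0. Sinusoidal endothelial markers (10 genes) summed to 47.6 to 121 CPM against 29.2 to 36.2 on chow and stellate cell markers (11 genes) to 17.9 to 58.5 against 12.5 to 15.2, while on the HFS diet the genotypes overlapped in both. Cholangiocyte markers (8 genes) summed to 12.8 to 15.7 against 5.16 to 6.66 CPM on chow and overlapped on the HFS diet. The number of these markers with any count went the other way. On chow it was 5, 4 and 5 in *Xbp1* fl/fl against 8 and 6 in *Xbp1* LKO libraries. Under HFS feeding it was 4, 4 and 5 against 8, 8 and 7. Kupffer cell and macrophage markers (11 genes) overlapped on chow (19.7 to 83.7 against 21.6 to 33.0 CPM) and not on the HFS diet (38.8 to 53.3 against 54.5 to 94.4 CPM). In bulk libraries fewer cells of a type and less RNA per cell cannot be told apart, and the part of these cells in the levels below was not tested. The chi-square per degree of freedom between replicates was 25.6 to 93.7, where counting error alone gives about 1, so the intervals on ratios below, which cover counting error only, are narrower than the spread between libraries.

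The starts of the genes differ in base composition. Of 32851 mouse promoters in RefSeq (GRCm38.p6), taken as the 250 bases before an annotated start, the median held 6 CG dinucleotides (quartiles 2 and 16) and 52.4% G or C. For 7 of the 8 genes a promoter was found, 12 in all; *Gm4956* had none. The promoters below belong to 2 genes counted in *Xbp1* LKO hepatocytes and 2 lowered in them, and are shown because their CG content spans the range from 0 to 29 and because the last holds the only XBP1-related motif found. They read 5′ to 3′ along the gene's strand, with CG dinucleotides in capitals. *Rap1gap2* (chr11:74610916-74611165, minus strand) has 23 CG, *Rnase2a* (chr14:51256113-51256362, minus strand) 0, *Grm8* (chr6:28135147-28135396, minus strand) 29 and *Nucb2* (chr7:116504119-116504368, plus strand) 17.
Rap1gap2: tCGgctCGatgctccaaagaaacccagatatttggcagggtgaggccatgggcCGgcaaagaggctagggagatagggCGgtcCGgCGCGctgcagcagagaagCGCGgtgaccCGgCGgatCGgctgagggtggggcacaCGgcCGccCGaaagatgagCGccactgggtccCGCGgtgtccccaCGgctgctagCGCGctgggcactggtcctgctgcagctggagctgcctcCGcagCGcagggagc
Rnase2a: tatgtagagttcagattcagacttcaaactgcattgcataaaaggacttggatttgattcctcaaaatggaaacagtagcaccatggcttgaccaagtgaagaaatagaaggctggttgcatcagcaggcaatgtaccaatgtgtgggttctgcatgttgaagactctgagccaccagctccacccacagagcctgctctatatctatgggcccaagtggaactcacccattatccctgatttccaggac
Grm8: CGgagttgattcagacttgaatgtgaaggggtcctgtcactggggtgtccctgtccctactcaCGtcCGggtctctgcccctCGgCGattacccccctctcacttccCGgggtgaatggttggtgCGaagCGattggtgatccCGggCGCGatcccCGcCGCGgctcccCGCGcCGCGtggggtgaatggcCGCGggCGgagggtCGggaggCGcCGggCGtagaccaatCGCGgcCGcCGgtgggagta
Nucb2: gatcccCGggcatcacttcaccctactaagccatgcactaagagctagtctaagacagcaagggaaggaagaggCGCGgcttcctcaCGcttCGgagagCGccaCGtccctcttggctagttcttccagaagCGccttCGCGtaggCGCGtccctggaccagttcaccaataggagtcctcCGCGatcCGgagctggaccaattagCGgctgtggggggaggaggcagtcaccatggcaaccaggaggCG

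In *Nucb2* the core GCCACGT, the central letters of elements that XBP1 and ATF6 bind, begins 150 bases before the start. It was in 1 of the 12 promoters of these genes and in 2.02% of all promoters, searched on both strands. The unfolded protein response element TGACGTGG (0.563% of all promoters), the cyclic AMP element TGACGTCA (1.55%), ERSE (0.113%) and ERSE-II (0.0304%) were in 0 of the 12. ERSE and ERSE-II hold CCACG, which the core also contains, so a match to 1 can overlap a match to another. The other promoters not printed held 1 CG in *Vmn2r3*, 5 in *Acpp* and 20 in *Gm15998*, and 30, 4 and 21 at further starts of *Rap1gap2* and 8 and 2 at those of *Grm8*. The RefSeq promoters of *Vmn2r3* (chr3:64287418-64287667) and *Gm15998* (chr3:89316496-89316745) lie inside the gene bodies given below. Their CG counts are therefore not those of the starts of these bodies. The genes higher and the genes lower in *Xbp1* LKO hepatocytes both had starts above and below the median of 6.

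*Vmn2r3* (ENSMUSG00000091572, chr3:64257215-64289709, minus strand, GRCm38, as are all positions here) encodes a type 2 vomeronasal receptor, a family known for sensing pheromones in the vomeronasal organ. It had 0 counts in all 3 chow-fed and all 3 HFS-fed *Xbp1* fl/fl libraries, 43 and 193 counts in the *Xbp1* LKO libraries on chow and 66, 164 and 191 in those on the HFS diet. Every *Xbp1* LKO library was above every *Xbp1* fl/fl library. The levels were 1.83 and 8.43 CPM on chow and 2.69, 6.10 and 7.32 CPM on the HFS diet. Against the 3 counts per library that a count of 0 allows, they were at least 31.5-fold higher on chow and at least 36.4-fold higher on the HFS diet.

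Other vomeronasal receptors had few counts or none. Of 238 other *Vmn2r* identifiers, pseudogenes included, 14 had any count and together they had 30 counts over the 11 libraries, against 657 for *Vmn2r3*. The nearest relatives in transcript sequence, *Vmn2r4* with 87.3% identity over 1707 bases, *Vmn2r7* with 86.4% over 2155 and *Vmn2r6* with 85.8% over 2169, had 0 counts in every library. No near-identical copy to share reads with was found among annotated transcripts. The search used the longest transcript of *Vmn2r3*, 10927 bases, while its annotated exons cover 17411 bases.

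*Rap1gap2* (ENSMUSG00000038807, chr11:74383356-74610915, minus strand) encodes a GTPase-activating protein that switches off the small GTPase RAP1. Its counts were 2, 1 and 1 on chow in *Xbp1* fl/fl and 74 and 344 in *Xbp1* LKO libraries, and 0, 0 and 1 against 41, 69 and 180 on the HFS diet. The genotypes did not overlap on either diet, and the second chow-fed *Xbp1* LKO library, at 15.0 CPM, was the highest of all 11. The ratio of summed counts was 125 on chow (95% exact counting interval 48.5 to 462) and 228 on the HFS diet (40.7 to 9052), where the *Xbp1* fl/fl group held 1 count. The log2 fold change on chow, 6.87 in the fit of all libraries, was 5.34 without the second chow-fed *Xbp1* LKO library, and that on the HFS diet, 7.40, was 9.36 without the *Xbp1* fl/fl library that held the count.

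*Rnase2a* (ENSMUSG00000047222, chr14:51255262-51256112, minus strand) belongs to the eosinophil-associated branch of the ribonuclease A family. Its counts were 0, 0 and 0 on chow in *Xbp1* fl/fl and 24 and 73 in *Xbp1* LKO libraries, at least 12.9-fold higher. Under HFS feeding they were 55, 36 and 15 in *Xbp1* fl/fl and 5, 63 and 10 in *Xbp1* LKO libraries, so the gene was also counted in hepatocytes that had *Xbp1*. There the genotypes overlapped, and the summed counts were 1.73 times higher in *Xbp1* fl/fl libraries (counting interval 1.28 to 2.34). To call *Rnase2a* switched on without *Xbp1* therefore describes the chow-fed libraries and not the HFS-fed ones. The log2 fold change on the HFS diet, -0.81 (SE 0.83), was -2.53 without the second *Xbp1* LKO library.

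Granulocyte markers, a list of 12 genes, were summed beside *Rnase2a*. They reached 0.050 to 0.33 CPM in chow-fed *Xbp1* fl/fl, 0.47 and 2.67 CPM in chow-fed *Xbp1* LKO, 0.14 to 3.61 CPM in HFS-fed *Xbp1* fl/fl and 1.75 to 7.86 CPM in HFS-fed *Xbp1* LKO libraries. The neutrophil and precursor genes carried most of the sum. *Ngp* had 0, 2 and 0 counts on chow in *Xbp1* fl/fl and 5 and 16 in *Xbp1* LKO libraries, and 0, 17 and 14 against 15, 61 and 53 on the HFS diet, and *S100a9* had 150, *S100a8* 102 and *Ltf* 71 counts over all 11 libraries. The eosinophil genes of the list were at or near 0, with *Il5ra* at 0 and *Prg2* at 3, *Epx* at 2, *Siglecf* at 5 and *Ccr3* at 1 count over all 11 libraries, against 281 for *Rnase2a*. The 3 chow-fed *Xbp1* fl/fl libraries had 0 counts of *Rnase2a* and sums among the 4 lowest of the 11. The sum and *Rnase2a* were both higher in library 2 than in library 1 of the chow-fed *Xbp1* LKO group (2.67 against 0.47 CPM for the sum, 3.19 against 1.02 CPM for *Rnase2a*), and both were lowest in library 1 of the HFS-fed *Xbp1* LKO group (1.75 and 0.20 CPM). Library 3 of that HFS-fed group had the highest sum of the 11, 7.86 CPM, with 0.38 CPM of *Rnase2a*. Its library 2 had a lower sum, 6.43 CPM, and more *Rnase2a*, 2.34 CPM. Among *Xbp1* fl/fl libraries of the HFS diet, library 1 had the most *Rnase2a*, 2.62 CPM, and the lowest sum, 0.14 CPM. The part of granulocytes in the *Rnase2a* counts was not tested. The related genes *Rnase2b* (84.5% identity over 561 bases) and *Ear2* (81.4% over 695) had 0 and 16 counts in all.

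*Grm8* (ENSMUSG00000024211, chr6:27275119-28135178, minus strand), a metabotropic glutamate receptor known from neurons, was the lowest on chow of the genes lowered in *Xbp1* LKO hepatocytes. Its counts were 36, 48 and 43 on chow in *Xbp1* fl/fl and 0 and 0 in *Xbp1* LKO libraries, at least 17.8-fold lower. Under HFS feeding they were 30, 67 and 21 against 8, 0 and 1, a ratio of 16.6 (counting interval 8.48 to 37.3). No *Xbp1* LKO library reached the lowest *Xbp1* fl/fl library, and 8 of the 9 counts in HFS-fed *Xbp1* LKO hepatocytes lay in library 1.

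*Nucb2* (ENSMUSG00000030659, chr7:116504369-116540584, plus strand) encodes nucleobindin 2, a secreted calcium-binding protein and the precursor of the peptide nesfatin. Its counts were 183, 74 and 90 on chow in *Xbp1* fl/fl and 2 and 4 in *Xbp1* LKO libraries, a ratio of 48.3 (counting interval 21.9 to 132). HFS-fed counts were 106, 110 and 70 against 51, 6 and 14, a ratio of 5.11 (3.93 to 6.73). The genotypes did not overlap on either diet, but library 1 of the HFS-fed *Xbp1* LKO group, at 2.08 CPM, lay well above the 0.22 and 0.54 CPM of the others. The log2 fold change on the HFS diet was -2.32 (SE 0.61) with that library and -3.61 without it.

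*Acpp* (ENSMUSG00000032561, chr9:104288251-104337748, minus strand) encodes prostatic acid phosphatase, whose membrane form hydrolyses extracellular AMP. Its counts were 565, 259 and 114 on chow in *Xbp1* fl/fl and 35 and 19 in *Xbp1* LKO libraries, and 109, 681 and 161 against 27, 17 and 23 on the HFS diet. The *Xbp1* fl/fl libraries ranged widely, from 5.68 to 31.2 CPM on chow and from 5.19 to 34.7 CPM on the HFS diet, and the *Xbp1* LKO libraries stayed between 0.63 and 1.49 CPM. The log2 fold changes were -3.88 (SE 0.95) and -4.19 (SE 0.83). Without the highest HFS-fed *Xbp1* fl/fl library the second was -2.91.

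*Gm4956* (ENSMUSG00000025936, chr1:21285246-21298312, minus strand) is annotated as a transcribed unprocessed pseudogene. Its counts were 214, 164 and 307 on chow in *Xbp1* fl/fl and 17 and 9 in *Xbp1* LKO libraries, and 102, 71 and 107 against 18, 8 and 4 on the HFS diet. The groups were widely apart on each diet, with log2 fold changes of -4.43 (SE 0.48) and -3.53 (SE 0.42), the smallest standard errors of the 8 genes.

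*Gm15998* (ENSMUSG00000086389, chr3:89315439-89318907, plus strand) is annotated as an antisense transcript and lies within *Efna3*, which encodes a membrane-anchored ephrin ligand and runs on the minus strand. Its counts were 150, 51 and 81 on chow in *Xbp1* fl/fl and 8 and 7 in *Xbp1* LKO libraries, and 25, 47 and 9 against 2, 0 and 4 on the HFS diet. The genotypes did not overlap on either diet, and the *Xbp1* fl/fl means were 5.09 CPM on chow and 1.34 CPM on the HFS diet. The log2 fold changes were -3.95 (SE 0.79) and -4.01 (SE 0.84), the second -4.90 without library 3 of the HFS-fed *Xbp1* LKO group. The annotated exons of *Gm15998* and *Efna3* share 344 bases, and the strand setting of the counting is not given in the sources used here, so reads in the shared part cannot be assigned.

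**Figure D1:**
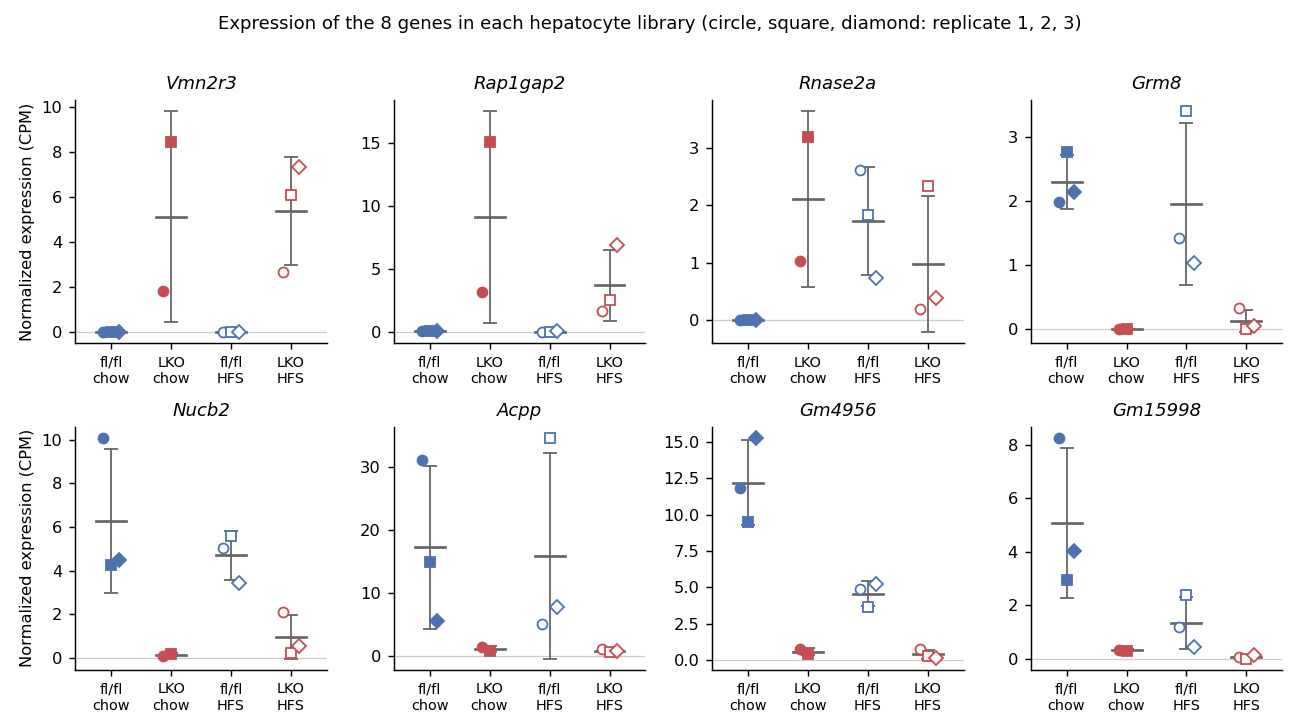
Expression of the 8 genes in CPM after TMM normalization (vertical axes, linear, each panel with its own range) in the 4 genotype and diet groups (horizontal axes). Points are libraries, circles, squares and diamonds standing for replicates 1, 2 and 3, filled on chow and open on the HFS diet, blue for *Xbp1* fl/fl and red for *Xbp1* LKO; horizontal bars are means and whiskers SD (n = 3, and n = 2 in chow-fed *Xbp1* LKO). *Vmn2r3* was at 0 in all *Xbp1* fl/fl libraries, and *Rnase2a* in *Xbp1* fl/fl libraries was at 0 on chow and at 0.73 to 2.62 CPM on the HFS diet.

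Counted over all genes tested, 8 of the 8 genes passed the threshold on chow, where 1.73% of genes were called higher and 3.02% lower in *Xbp1* LKO hepatocytes, and 6 of 8 on the HFS diet, where 1.92% were called higher and 2.16% lower. The libraries of the genotypes did not overlap for 8 of 8 genes on chow, against 31.3% of all genes, and for 7 of 8 on the HFS diet, against 26.1%. These counts follow from how the genes were picked. When genes that passed, averaged 1 CPM or more and did not overlap were ranked by log2 fold change, *Vmn2r3* (9.81), *Rnase2a* (8.53) and *Rap1gap2* (6.87) led the 204 genes higher on chow, and *Nupr1* (6.62), a stress-induced nuclear protein, came next. *Grm8* (-8.65), *Nucb2* (-5.54) and *Gm4956* (-4.43) led the 388 genes lower on chow, with *Fgfr2* (-4.34), a growth factor receptor, just outside and *Gm15998* and *Acpp* in places 5 and 6. On the HFS diet the genes just outside were *Rian* (6.20), a long noncoding RNA, after *Vmn2r3* and *Rap1gap2*, and *Ces1e* (-2.95), a carboxylesterase, after *Acpp*, *Gm15998*, *Grm8* and *Gm4956*. Fitted values of genes with a group at 0 depend on the prior count and set the order only.

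Compared per kilobase of annotated exon, *Gm4956* was the most abundant of the 8 in chow-fed *Xbp1* fl/fl hepatocytes, with a mean of 8.93 CPM per kb. *Gm15998* (2.76), *Nucb2* (2.70) and *Acpp* (2.36 CPM per kb) followed, with libraries that overlapped, and *Grm8* was at 0.23 CPM per kb. In chow-fed *Xbp1* LKO hepatocytes *Rnase2a* led with a mean of 3.05 CPM per kb, ahead of *Rap1gap2* at 1.27 and *Vmn2r3* at 0.29. Neighbours in this order overlapped, while the libraries of *Rnase2a* and *Vmn2r3* lay apart. By mean level per kilobase the pseudogene thus led in chow-fed *Xbp1* fl/fl hepatocytes, while in chow-fed *Xbp1* LKO ones it was at 0.41 CPM per kb.

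Within the *Xbp1* LKO groups the genes varied by library. In the HFS-fed group, library 1 had the highest level of 4 of the 5 lowered genes and the lowest level of 3 of the 3 others. As a share of the *Xbp1* fl/fl mean on the same diet, *Nucb2* in that library was at 44.3%, against 4.76% and 11.4% in libraries 2 and 3. *Grm8* was at 16.7% against 0% and 1.96%, and *Gm4956* at 16.0% against 6.51% and 3.35%. The exception among the lowered genes was *Gm15998*, at 6.07% in library 1 and 11.4% in library 3. Library 1 also had the largest share of its counts in albumin, 5.40%, against 3.33% and 4.38% in the others, and the highest sum of 27 XBP1 targets, 3330 CPM against 2388 and 2645. *Xbp1* itself lay between the others there, at 117 CPM against 97.3 and 135 CPM in libraries 2 and 3. In the chow-fed *Xbp1* LKO group, library 2 had 4.60 times the *Vmn2r3*, 4.76 times the *Rap1gap2* and 3.12 times the *Rnase2a* level of library 1, and 1.67% of its counts in albumin against 3.72%. Its XBP1 targets summed to 3941 CPM, against 2391 in library 1, and its *Xbp1* stood at 128 CPM against 95.7. The part of the albumin share, of the XBP1 targets and of *Xbp1* in these levels was not tested.

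**Figure D2:**
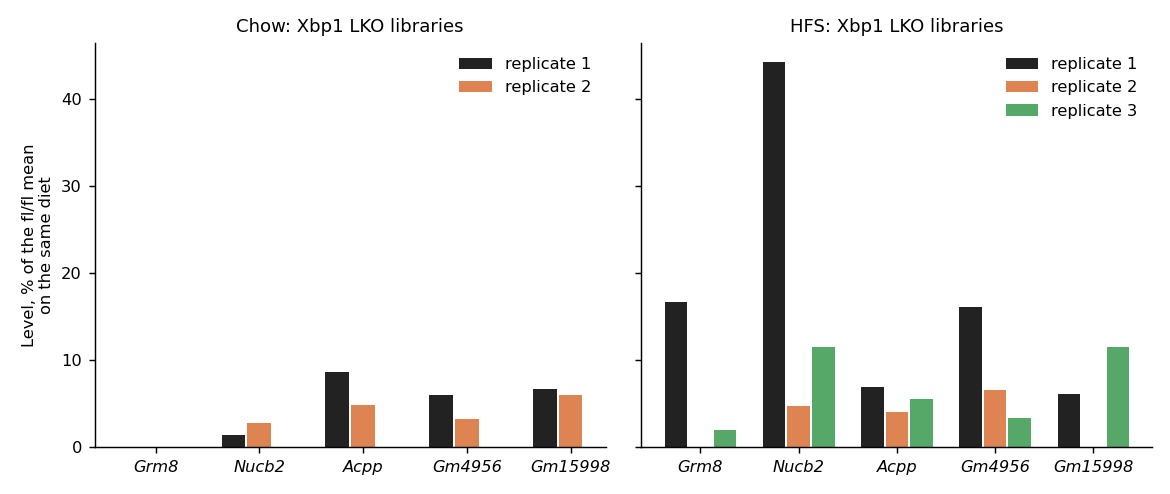
Levels of the 5 genes lowered in *Xbp1* LKO hepatocytes (horizontal axes) in each *Xbp1* LKO library, as a percentage of the mean of the *Xbp1* fl/fl libraries on the same diet (vertical axis, from 0); each bar is 1 library, coloured by replicate number, and an absent bar above a replicate that was sequenced means 0. On chow the libraries lay between 0 and 8.65%, while HFS-fed library 1 reached 44.3% for *Nucb2*.

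The comparison of diets asked whether the HFS diet moved these genes within a genotype. In *Xbp1* fl/fl hepatocytes 0 of 8 passed the threshold (edgeR; 3 at an unadjusted p under 0.05; DESeq2 called 2), against 0.428% of all genes. *Rnase2a* went from 0 counts in every chow-fed library to 15 to 55 counts, at least 10.6-fold, with an edgeR adjusted p = 0.162 and a DESeq2 adjusted p = 5.88e-05. *Gm4956* stood at 11.8, 9.48 and 15.3 CPM on chow and 4.86, 3.61 and 5.24 CPM on the HFS diet, without overlap, a log2 fold change of -1.41 (SE 0.33, edgeR adjusted p = 0.140, DESeq2 adjusted p = 0.0014). *Gm15998* stood at 8.27, 2.95 and 4.03 against 1.19, 2.39 and 0.44 CPM, a log2 fold change of -1.92 (SE 0.58, edgeR adjusted p = 0.30, DESeq2 adjusted p = 0.066). For *Rnase2a* and *Gm4956* the call thus depends on the tool, and two-sided exact permutation tests of each, with 3 libraries against 3, gave p = 0.10, the smallest that design allows. The chow-fed *Xbp1* fl/fl levels helped to pick these genes, so the p-values of all these tests can be too small. *Grm8* (-0.24, SE 0.61), *Nucb2* (-0.42, SE 0.55) and *Acpp* (-0.12, SE 0.66) differed between diets by less than their standard errors. *Rap1gap2* held 4 counts on chow and 1 on the HFS diet, a ratio of 4.40 (counting interval 0.44 to 217). The diets did not overlap for 4 of 8 genes, *Rap1gap2*, *Rnase2a*, *Gm4956* and *Gm15998*, against 13.7% of all genes. For *Rap1gap2* this rested on 0.0498 CPM on chow against 0.0490 CPM on the HFS diet, 1 count in either library.

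In *Xbp1* LKO hepatocytes 0 of 8 genes passed the threshold for diet (edgeR; 1 at an unadjusted p under 0.05; DESeq2 called 0), against 0.0601% of all genes. *Nucb2* stood at 0.085 and 0.17 CPM on chow and 2.08, 0.22 and 0.54 CPM on the HFS diet, a log2 fold change of 2.80 (SE 1.02, edgeR adjusted p = 0.297), or 1.51 without library 1 of the HFS-fed group. *Rap1gap2* stood at 3.16 and 15.0 against 1.67, 2.57 and 6.90 CPM (log2 fold change -1.29, SE 0.62, edgeR adjusted p = 0.421), and the diets overlapped. *Vmn2r3* differed least, by 0.07 (SE 0.65). The diets did not overlap for 2 of 8 genes, *Nucb2* and *Gm15998*, against 31.1% of all genes.

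The interaction, the difference between the genotype effects on the diets, passed the threshold for 0 of 8 genes (edgeR; 2 at an unadjusted p under 0.05; DESeq2 called 1), against 0% of all genes. *Rnase2a* was the gene DESeq2 called (adjusted p = 0.0021, edgeR adjusted p = 0.603). It was at least 12.9-fold higher in *Xbp1* LKO hepatocytes on chow. On the HFS diet its genotype estimate was -0.81 (SE 0.83) and the genotypes overlapped. For *Nucb2* the estimate was 3.22 (SE 1.17, edgeR adjusted p = 0.749). The 8 genes were picked on the parts of this contrast, so it is not independent of the choice. Its p-values are biased towards small ones and give no test of the 8 genes.

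**Figure D3:**
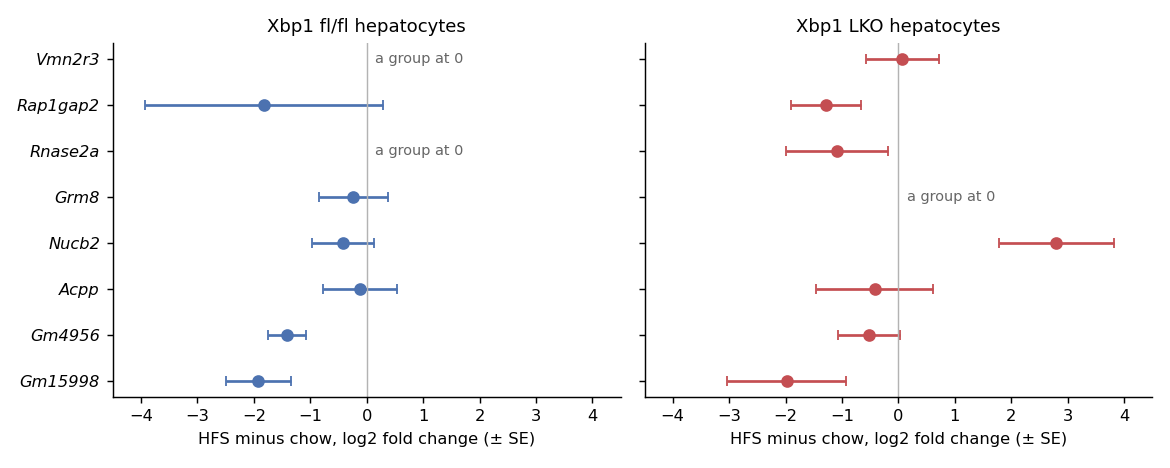
Log2 fold change of each gene between the HFS and chow diets (horizontal axes, positive values higher on the HFS diet) in *Xbp1* fl/fl (left, 3 against 3 libraries) and *Xbp1* LKO hepatocytes (right, 3 against 2); points are edgeR estimates and whiskers their standard errors. Genes with a group at 0 counts have no point. *Gm4956* (-1.41) and *Gm15998* (-1.92) lay below 0 in *Xbp1* fl/fl hepatocytes and *Nucb2* (2.80) above 0 in *Xbp1* LKO hepatocytes, and no gene passed the threshold.

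Genes lying near the 8 were compared by genotype to see whether a whole stretch of chromosome differed. Within 200 kb of the gene bodies lay 144 annotated genes, of which 42 were tested. On chow 3 were called lower and 0 higher, and under HFS feeding 3 lower and 0 higher, where 3.02% and 2.16% of all genes were called lower. All of these lay near *Gm15998*, where 24 were tested. Near the other 7 genes 18 were tested and 0 were called on either diet (edgeR; 4 on chow and 0 on the HFS diet at an unadjusted p under 0.05; DESeq2 called 0 on each), with a lowest adjusted p of 0.136 on chow and 0.301 on the HFS diet. None of the 14 genes around *Vmn2r3*, among them other vomeronasal receptors, had enough counts to be tested.

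*Efna3*, which overlaps *Gm15998*, had 40, 11 and 38 counts on chow in *Xbp1* fl/fl and 0 and 1 in *Xbp1* LKO libraries, a ratio of 74.3 (counting interval 12.99 to 2966) and a log2 fold change of -5.86 (edgeR adjusted p = 0.016). With HFS feeding it had 7, 16 and 3 against 2, 0 and 1 counts (-3.29, adjusted p = 0.090). *Gm15998* and *Efna3* thus differed in the same direction, in reads that the counting may share. *Pbxip1*, which encodes a protein that binds the homeodomain factor PBX, begins 118 kb away and stood at 15.0, 17.7 and 7.22 CPM against 3.41 and 3.32 CPM on chow (-1.98, adjusted p = 0.020). Its HFS-fed levels were 9.29, 15.0 and 8.72 against 2.12, 2.12 and 3.8 CPM (-2.04, adjusted p = 0.0098). *Pmvk*, phosphomevalonate kinase of sterol synthesis, 136 kb away, was lower by a log2 fold change of -1.20 (adjusted p = 0.014) on chow and -0.84 (adjusted p = 0.047) on the HFS diet. *Krtcap2*, a subunit of the oligosaccharyltransferase, 65.5 kb away on the other side, passed on the HFS diet (-0.66, adjusted p = 0.030) and not on chow (-0.60, adjusted p = 0.065). The genes between *Gm15998* and *Pbxip1* were not called, so the lowered genes did not form an unbroken stretch. Without the second chow-fed *Xbp1* LKO library, which leaves 1 library in that group, 0 neighbours were called on chow, while *Pbxip1* stood at -1.96 and *Pmvk* at -0.89. Without the second HFS-fed *Xbp1* LKO library 0 were called on the HFS diet, with *Pbxip1* at -1.89, *Pmvk* at -0.74 and *Krtcap2* at -0.51, so the calls were lost and the directions were not.

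**Figure D4:**
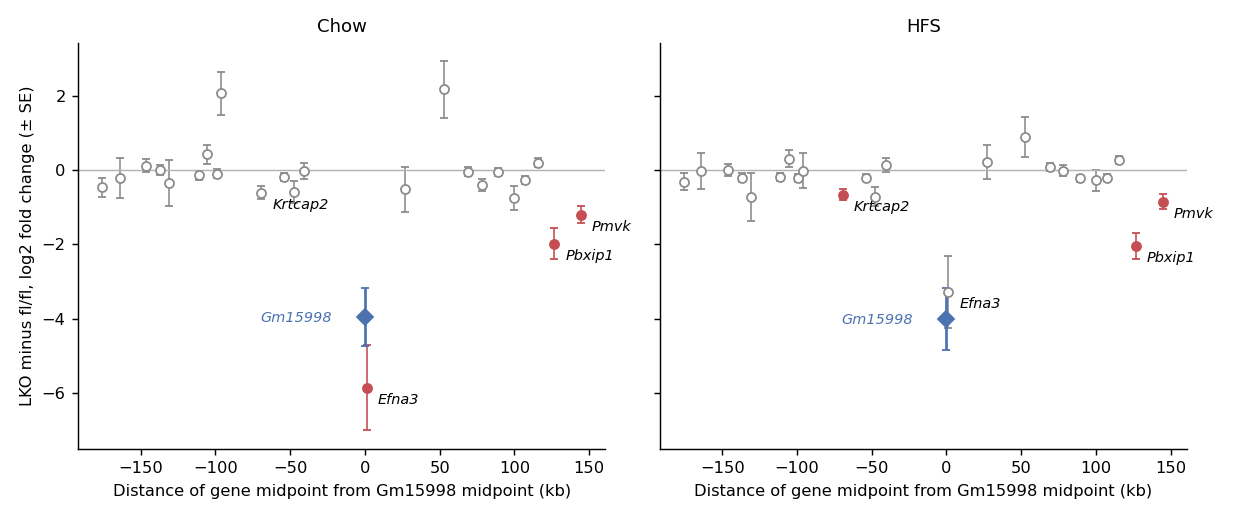
Log2 fold change between *Xbp1* LKO and *Xbp1* fl/fl hepatocytes (vertical axis, negative values lower in *Xbp1* LKO) of the 24 tested genes within 200 kb of *Gm15998*, against the distance of their midpoints from its midpoint in kb (horizontal axes), on chow (left) and the HFS diet (right). Filled red points passed the threshold, open grey points did not, the blue diamond is *Gm15998*, and whiskers are standard errors. *Efna3* lay at -5.86 on chow and -3.29 on the HFS diet.

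Families and pathways around the 8 genes were compared by genotype, and their counts are read against the 1.73% of all genes called higher and 3.02% lower on chow, and 1.92% and 2.16% on the HFS diet. The list for *Rap1gap2* held RAP GTPases, genes that switch them on or off, and binding partners. Of its 22 tested genes, 0 passed on either diet by edgeR. At an unadjusted p under 0.05 there were 3 on chow and 4 on the HFS diet, and DESeq2 called 1 on each. The median log2 fold change of the 22 was -0.01 on chow and -0.07 on the HFS diet. Of the list for *Rnase2a*, the ribonuclease A family genes *Rnase4*, *Ang* and *Rnase13* and the ribonuclease inhibitor gene *Rnh1* were tested, and 0 passed on either diet (edgeR; 0 at an unadjusted p under 0.05; DESeq2 called 0), while 10 of the 20 listed had 0 counts throughout. Among 20 nucleobindin and secretory calcium genes 0 passed on chow (edgeR; 7 at an unadjusted p under 0.05; DESeq2 called 4) and 2 were lower on the HFS diet, the calcium store sensors *Stim1* (-0.57, adjusted p = 0.014) and *Stim2* (-0.96, adjusted p = 0.035). The estimates of *Nucb2* itself were -5.54 and -2.32.

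Among 16 tested acid phosphatases and ectonucleotidases, listed for *Acpp*, 1 was higher on chow, where 1.73% of all genes were, and 3 on the HFS diet, where 1.92% were, and 0 were lower. *Nt5e*, which encodes the ectonucleotidase CD73 and, like prostatic acid phosphatase, makes adenosine from AMP, stood at a mean of 3.20 CPM in chow-fed *Xbp1* fl/fl and 16.2 CPM in chow-fed *Xbp1* LKO libraries (2.33, SE 0.36, edgeR adjusted p = 0.0058). On the HFS diet it stood at 1.81 against 7.87 CPM (2.11, SE 0.35, adjusted p = 0.0081). *Acpp* and *Nt5e* therefore differed in opposite directions between the genotypes. *Entpd5*, a nucleotidase of the endoplasmic reticulum (0.88, adjusted p = 0.0084), and *Alpl*, alkaline phosphatase (0.58, adjusted p = 0.032), were higher on the HFS diet.

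For scale, 15 of 27 XBP1 targets were lower on chow and 10 on the HFS diet, and 0 were higher, with median log2 fold changes of -0.80 and -0.76 against 0.0024 and 0.0083 over all genes. *Ssr3*, of the translocon-associated complex, was lower on chow by a log2 fold change of -1.11 (adjusted p = 0.0053), *Spcs2* of the signal peptidase by -1.21 (adjusted p = 0.0052), *Ssr1* by -0.89 (adjusted p = 0.0045) and the exchange factor *Sil1* by -0.83 (adjusted p = 0.010). The 5 lowered genes had estimates from -3.88 to -8.65 on the same diet. Scaling by library totals moved the median of all genes by 0.33 on chow and 0.26 on the HFS diet.

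The genes most like each of the 8 over the 11 libraries, by Pearson's r of log2 CPM, are given as a description, since all libraries share the 2 genotypes that set the pattern. *Vmn2r3* was most like *Slc22a3* (0.99), an organic cation transporter, *Rhbg* (0.98), an ammonium transporter, and *Rap1gap2* (0.97). *Rap1gap2* was most like *Nupr1* (0.99), *Psat1* (0.98), an enzyme of serine synthesis, and *Vmn2r3*. *Rnase2a* had the weakest likeness, with *Tfcp2* at 0.91, *Arhgef40* and *Irgq* at 0.90, and with *Vmn2r3* it reached 0.40. *Grm8* and *Nucb2* shared the kinase gene *Ikbke* as their nearest (0.99 each), followed by *Pzp* and *P4hb* (0.98 each), a protease inhibitor and a protein disulfide isomerase, for *Grm8*, and by *Ssr1* and *Mrgpre* (0.98 each) for *Nucb2*. *Acpp* was nearest to *Apon* (0.98), *Dtnbp1* and *Sytl1* (0.96 each). *Gm4956* was nearest to *Dlgap1*, *Gm15883* and *Gm49668* (0.97 each), and *Gm15998* to *Gm49024* (0.98), *Wfdc21* and *Pla2g12b* (0.96 each). *Vmn2r3* and *Rap1gap2* were thus among each other's nearest genes.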

How the data were processed

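RNA from isolated hepatocytes of 4 groups was sequenced in 11 libraries. The authors deposited a raw count, in whole numbers, for each Ensembl identifier. The study's methods name kallisto and tximport, while the submitters' processing notes name cutadapt 1.13, STAR, HTSeq 0.6.1p1, DESeq2 and mm10; which made these counts is not settled. Symbols and positions came from GENCODE M21 on GRCm38, which held 54165 of 54232 identifiers. Total counts were 19191032 to 23888401. Groups came from the sample titles.

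In R 4.3.3, edgeR 4.0.16 gave TMM factors, removed genes of low count (filterByExpr, minimum count 10) and fitted quasi-likelihood models of the 4 groups, adjusting p over 13303 genes by Benjamini-Hochberg at a threshold of 0.05. Alternatives were DESeq2 1.42.0, RLE factors, library totals, other filters, the compared groups only, a replicate block and each library left out. The standard errors given with edgeR estimates were not taken from the model. Each is the size of the log2 fold change divided by the square root of the quasi-likelihood F statistic. The code was tested on simulated counts.

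The genes, lists and motifs were chosen with earlier results of these data known. Named genes were the 8, *Xbp1*, the 3 most correlated genes each, called neighbours within 200 kb, up to 4 called genes per list, and the genes just outside the ranking; *Rnase4*, *Ang*, *Rnh1*, *Rnase13*, the granulocyte genes, and relatives by sequence were named beside counts after their values were seen. Labels do not say whether replicates came from separate isolations, so p-values measure the spread between libraries.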

Additional observations from a re-analysis of the deposited data

How the results depend on the processing

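Under the alternatives run, 8 genes on chow and 7 or 8 on the HFS diet did not overlap between genotypes, which the choice of the genes largely fixes. For diet in *Xbp1* fl/fl hepatocytes, 0 genes were called by edgeR, 2 by DESeq2 (*Gm4956* and *Rnase2a*), 3 with no low-count filter (also *Gm15998*) and 0 to 1 with a library left out, the 1 being *Rnase2a* without the second HFS-fed *Xbp1* LKO library. In *Xbp1* LKO hepatocytes no filter gave 2 (*Nucb2* and *Rap1gap2*), and for the interaction DESeq2 gave 1 and no filter 2 (*Nucb2* and *Rnase2a*). Called neighbours on chow, 3, became 9 with library totals, 6 with no filter, 1 with only the compared groups and 0 to 4 with a library left out; on the HFS diet, 3 became 5 with no filter and 0 to 3 with a library left out. List genes called, 16 on chow, ranged from 2 (without the second chow-fed *Xbp1* LKO library) to 18 with a library left out; on the HFS diet, 15 became 25 by DESeq2 and 25 with no filter, and 7 to 21 with a library left out. *Xbp1* on chow lost its call with library totals (-0.54), only the compared groups (-0.88), the replicate block (-0.85) and either chow-fed *Xbp1* LKO library left out (-0.68 to -1.10 over all libraries left out). The cause of these changes was not tested. A chow-fed *Xbp1* LKO library left alone was assumed to vary like the other groups.

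Same-numbered libraries deviated from their group means with correlations of -0.20 to 0.23, so the numbers were not taken as pairs; with the replicate number as a block, 0 of 8 genes were called for diet in each genotype and 0 for the interaction. The second chow-fed *Xbp1* LKO library carries the number 3 elsewhere; with that number, chosen as an alternative after seeing the data, its correlations were -0.15, -0.14 and 0.25, 0 of 8 genes were called in each of these comparisons, and *Xbp1* on chow stayed called (-0.91).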
